A study of Homo sapiens with 12 samples.

Results

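The 41 genes described here encode mitotic kinases, kinesins, checkpoint proteins and cytokinesis factors. They were the rows of the counts table with the listed symbols, 41 of 19225 entries, and all 41 were among the 13887 genes that passed the filter on low counts. They fall into 10 regulators of mitotic entry, 10 spindle motors and assembly factors, 6 spindle checkpoint genes, 4 subunits of the chromosomal passenger complex, 3 anaphase regulators and 8 cytokinesis genes. RNA came from HN6 and HN30, established squamous carcinoma cell lines that the study used as models of oral squamous cell carcinoma (OSCC). In each line, cells received a scrambled siRNA (NC), siFAT1-1 or siFAT1-2 with a lipid reagent and were harvested 24 h later. Each of the 6 conditions had 2 repeats made at separate times, giving 12 libraries, of which 8 were FAT1 knockdown (FAT1 KD) and 4 were NC. The knockdown was transient, all libraries of a line came from 1 cell line, and the sample titles call the siRNAs sh1 and sh2.

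Entry into mitosis is driven by CDK1 bound to cyclin B. CDC25 phosphatases activate this pair, and WEE1 and PKMYT1 hold it back. Kinesins then build and focus the spindle, the checkpoint delays anaphase until chromosomes are attached, the anaphase-promoting complex releases separase, and a contractile ring divides the cell. Most of these genes are transcribed late in the cell cycle, so their mRNA in a culture is known as a readout of how many cells are in G2 and mitosis. Many of their promoters carry a cell cycle genes homology region (CHR), bound by the MuvB complex, downstream of boxes bound by NF-Y.

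Promoter windows from RefSeq (GRCh38.p14, 250 bases before to 50 after each start site) were found for 32 of the 41 members. RACGAP1, TPX2, AURKA, BUB3, TTK, BIRC5, UBE2C, WEE1 and PKMYT1 had no window. The CHR core TTTGAA, searched on both strands, was present in a window of 24 of the 32 members (75%), against 13.8% of the 10740 tested genes with a window. Within 60 bases before to 50 after a start site it was present in 23 members (71.9%), against 4.65% of genes. The variant TTCGAA was found in CDC25B, KIF22 and BUB1, 3 of 32, against 2.37% of genes. The NF-Y box CCAAT was present in 28 members (87.5%, against 42.7%) and at least 2 times in 15 (46.9%, against 15.8%). Both TTTGAA and CCAAT were present in 21 members (65.6%, against 7.56%). A gene with several windows counted once if any window held the motif. The CHR forms cannot share bases with each other, and CCAAT can share at most 1 base with them. A match is a description of the letters, not a bound site. The windows of the 4 members that passed the thresholds for differentially expressed genes over both lines and have 1 start site are shown whole, with the cores in capitals.
KIF2C (chr1:44739587-44739886, plus strand): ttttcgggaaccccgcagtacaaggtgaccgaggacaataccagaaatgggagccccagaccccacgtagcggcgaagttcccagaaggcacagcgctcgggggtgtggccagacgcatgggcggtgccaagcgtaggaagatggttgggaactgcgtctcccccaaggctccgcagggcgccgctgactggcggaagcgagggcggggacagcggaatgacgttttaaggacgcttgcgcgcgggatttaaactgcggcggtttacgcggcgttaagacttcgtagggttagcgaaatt
KIF18B (chr17:44947724-44948023, minus strand): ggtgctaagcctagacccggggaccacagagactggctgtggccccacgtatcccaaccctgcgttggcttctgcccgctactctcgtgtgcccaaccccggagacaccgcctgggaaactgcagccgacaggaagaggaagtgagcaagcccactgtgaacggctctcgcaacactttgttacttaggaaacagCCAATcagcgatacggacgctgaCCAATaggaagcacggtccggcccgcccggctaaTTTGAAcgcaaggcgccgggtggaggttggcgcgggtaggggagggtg
CDCA3 (chr12:6851237-6851536, minus strand): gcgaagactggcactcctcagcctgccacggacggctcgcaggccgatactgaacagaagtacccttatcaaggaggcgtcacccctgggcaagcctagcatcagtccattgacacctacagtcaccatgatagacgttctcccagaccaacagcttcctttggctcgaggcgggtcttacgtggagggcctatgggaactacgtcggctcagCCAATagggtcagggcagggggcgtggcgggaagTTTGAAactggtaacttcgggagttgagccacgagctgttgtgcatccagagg
ESPL1 (chr12:53268049-53268348, plus strand): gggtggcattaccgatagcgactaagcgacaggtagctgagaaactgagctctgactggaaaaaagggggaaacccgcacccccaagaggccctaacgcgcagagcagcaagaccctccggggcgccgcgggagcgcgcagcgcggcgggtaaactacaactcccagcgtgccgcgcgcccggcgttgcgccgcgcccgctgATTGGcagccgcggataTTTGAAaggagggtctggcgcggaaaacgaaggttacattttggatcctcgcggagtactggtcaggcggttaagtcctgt

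In the KIF18B, CDCA3 and ESPL1 windows, CCAAT or its complement stood before TTTGAA, and TTTGAA began 3 bases after, 3 before and 31 before the start site, respectively. The KIF2C window held none of the 3 motifs, which was also the case for 50.2% of genes. For 6 of the 10 members that passed the thresholds in HN30, 60 bases around the match closest to a start site are shown, TTCAAA being TTTGAA on the other strand.
CDK1 (chr10:60778460-60778519, plus strand): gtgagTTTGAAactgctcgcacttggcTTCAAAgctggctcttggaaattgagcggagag
CDC25C (chr5:138331802-138331861, minus strand): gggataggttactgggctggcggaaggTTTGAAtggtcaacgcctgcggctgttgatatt
KIF4A (chrX:70290043-70290102, plus strand): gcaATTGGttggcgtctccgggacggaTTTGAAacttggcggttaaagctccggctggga
KIFC1 (chr6:33391800-33391859, plus strand): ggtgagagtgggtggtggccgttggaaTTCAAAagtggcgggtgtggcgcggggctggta
NUSAP1 (chr15:41332867-41332926, plus strand): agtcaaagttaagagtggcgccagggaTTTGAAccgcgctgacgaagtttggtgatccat
KIF23 (chr15:69414267-69414326, plus strand): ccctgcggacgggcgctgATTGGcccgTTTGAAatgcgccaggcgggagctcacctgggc

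**Figure D1:**
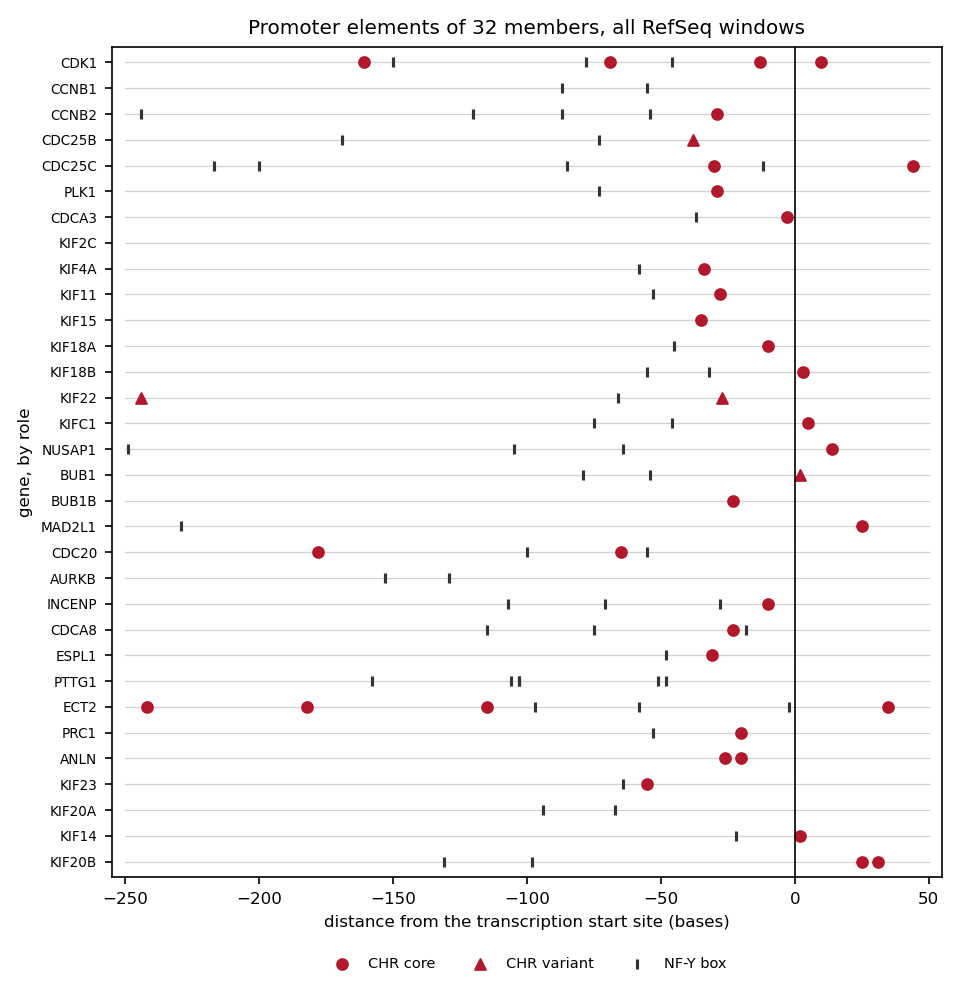
Position of the CHR core (TTTGAA, circles), its variant (TTCGAA, triangles) and the NF-Y box (CCAAT, bars) in all RefSeq windows of 32 members, by role, on either strand. The x axis is the distance from the start site in bases. In 23 members a CHR core lies within 60 bases before to 50 after a start.

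Libraries held 26430049 to 47639010 counts. FAT1 was at 56.8 and 66.7 CPM (counts scaled to library size) in HN6 NC, 7.61 and 13.5 with siFAT1-1, and 13.2 and 21.4 with siFAT1-2. In HN30 it was at 13.6 and 14.7 CPM in NC, 4.86 and 6.26 with siFAT1-1, and 10.8 and 7.74 with siFAT1-2, so each knockdown library lay below both NC libraries of its line. The FAT1 log2 fold change was -2.15 ± 0.38 (SE) in HN6 and -0.93 ± 0.38 in HN30 (edgeR adjusted p = 0.191 and 0.538). For HN30 siFAT1-2 alone the FAT1 log2 fold change was -0.61 ± 0.35, with an edgeR P of 0.113 before adjustment. That test did not show a FAT1 decrease there. Of the squamous markers, KRT5 ran from 90.6 to 1990 CPM, whereas KRT14 reached only 2.42 CPM. PTPRC of leukocytes had at most 1 count, but COL1A1, known from fibroblasts, ran from 11.1 to 146 CPM and CD68, known from macrophages, from 16.1 to 121. The part of these levels in the results was not tested.

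In NC cells the members spanned a wide range of levels. Per kb of canonical transcript, the highest in HN30 NC were UBE2C, a ubiquitin-conjugating enzyme of the anaphase-promoting complex, at 127 ± 11.5 CPM per kb (SD, n = 2), CDC20, its activator, at 125 ± 25, and ANLN, the ring scaffold anillin, at 125 ± 50.6. These 3 did not differ beyond their spread. The lowest were the kinesins KIF15, KIF14 and KIF20B, at 4.53 ± 2.79, 4.66 ± 3.61 and 4.73 ± 2.71 CPM per kb. In HN6 NC the top was CDC20 at 267 ± 187 and the bottom KIF15 at 1.11 ± 1.06, with SDs as large as the means for ANLN, ECT2, TTK, KIF18A, KIF14 and KIF20B. Between the NC cells of the lines, 4 members passed the study's thresholds for differentially expressed genes (DEGs), which ask for P below 0.05 before adjustment and a log2 fold change beyond 1 in size, as did 30.7% of all genes. ANLN, KIF20B, KIF11 and MAD2L1 were fitted 4.77-, 3.65-, 3.65- and 2.28-fold higher in HN30. No member had an adjusted p under 0.05 with edgeR (32.6% of all genes did), 5 had an unadjusted P under 0.05 (44.1% of all genes), and limma-voom and DESeq2 each gave 3 below an adjusted p of 0.05. With GC content corrected for, as described further on, edgeR put BUB3, ANLN and KIF20B below it (adjusted p = 0.0393, 0.0488 and 0.0301), as 35% of all genes, and without repeat 1 of HN6 NC it put 8 members there. The count of 4 became 0 without repeat 2 of HN6 NC or repeat 1 of HN6 siFAT1-1, 1 without repeat 2 of either siFAT1-1 group, repeat 1 of HN30 siFAT1-1 or repeat 2 of HN30 NC, 7 without either HN6 siFAT1-2 library and 9 without repeat 1 of HN6 NC, and 2 with the replicate block described below (28.2% of all genes). The difference between the HN6 NC repeats followed the GC content of the transcripts, as given further on. Its part in these levels was not tested beyond that correction.

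FAT1 KD and NC were first compared over both lines, with cell line as a term. All 41 members were fitted lower in FAT1 KD, against 48% of all genes, with a median log2 fold change of -0.74, against 0.02 over all genes. Of these, 13 had an unadjusted P under 0.05 (7.75% of all genes were called lower this way) and 5 passed the DEG thresholds (1.04%). They were CDC25B, CDCA3, KIF2C, KIF18B and ESPL1. No member had an adjusted p under 0.05 with edgeR or limma-voom, and 1 did with DESeq2, against 0.547% of all genes with edgeR. The DEG count was 1 without repeat 2 of HN6 NC or repeat 2 of HN30 NC, 3 without repeat 1 of either siFAT1-1 group or of either siFAT1-2 group, 13 without repeat 2 of HN6 siFAT1-2, and 17 without repeat 1 of HN6 NC or repeat 2 of HN30 siFAT1-2. P-values here set the fitted difference against the spread between these libraries. In this fit that spread also holds differences between the siRNAs and between the responses of the lines. The members often moved together between repeats, as given further on, so 41 of 41 is not 41 independent observations. Fewer cells in mitosis and less mRNA per cell cannot be told apart in such bulk samples.

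The fitted differences were larger in HN30. There all 41 members were fitted lower (46.5% of all genes), with a median log2 fold change of -1.07 (0.03 over all genes). An unadjusted P under 0.05 was reached by 11 members, all lower (4.48% of all genes), and 10 passed the DEG thresholds (1.97%), CDK1, CDC25B, CDC25C, CDCA3, KIF4A, KIF22, KIFC1, NUSAP1, RACGAP1 and KIF23. No member had an adjusted p under 0.05 with edgeR, limma-voom or DESeq2 (0.0144% of all genes with edgeR). With the replicate block, which pairs libraries with the same repeat number in the labels, 25 members passed the DEG thresholds, against 2.06% of all genes in the same fit. In 15 members all 4 FAT1 KD libraries lay below both NC libraries of HN30, as in 11.1% of all genes. The DEG count of 10 rested on single libraries. It was 0 without repeat 1 of HN30 siFAT1-2 or repeat 2 of HN30 NC, 3 and 5 without repeat 1 and repeat 2 of HN30 siFAT1-1, 20 without repeat 1 of HN6 siFAT1-2, which enters through the shared spread, and 30 without repeat 2 of HN30 siFAT1-2.

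In HN6, 28 of the 41 members were fitted lower in FAT1 KD (49.7% of all genes), with a median log2 fold change of -0.40 (0 over all genes). Only CDC25B had an unadjusted P under 0.05 (3.53% of all genes) and passed the DEG thresholds (0.979%). No member had an adjusted p under 0.05 with any of the 3 tools, nor did any gene with edgeR (0%). CDC25B dropped out without any 1 of 9 of the 12 libraries, namely those other than repeat 1 of HN6 NC and repeat 2 of either siFAT1-2 group, and 5 members passed without repeat 1 of HN6 NC. CDC25C was the only member whose 4 FAT1 KD libraries all lay below both HN6 NC libraries (9.23% of all genes), and no member did so in both lines (3.15%).

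The interaction of line and knockdown asked whether the lines differed in response. The fitted log2 fold change of all 41 members was lower in HN30 than in HN6 (48% of all genes), by a median of 0.64. No member reached an unadjusted P under 0.05 (2.15% of all genes), so none passed the DEG thresholds (1.79%) or an adjusted p under 0.05 (0%) with edgeR. With limma-voom and DESeq2, 1 and 2 members had an unadjusted P under 0.05. The largest fitted difference was that of KIF11, at -2.02 ± 0.98 (SE). With GC content corrected for, that of BUB3 was positive, at 0.36 ± 0.35. The count past the DEG thresholds was 8 without repeat 1 of HN6 NC, 4 without repeat 1 of HN6 siFAT1-2 and 5 without repeat 2 of HN30 siFAT1-2. A difference between the lines was not shown for any member, nor was a like response, since these P values only miss a threshold.

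**Figure D2:**
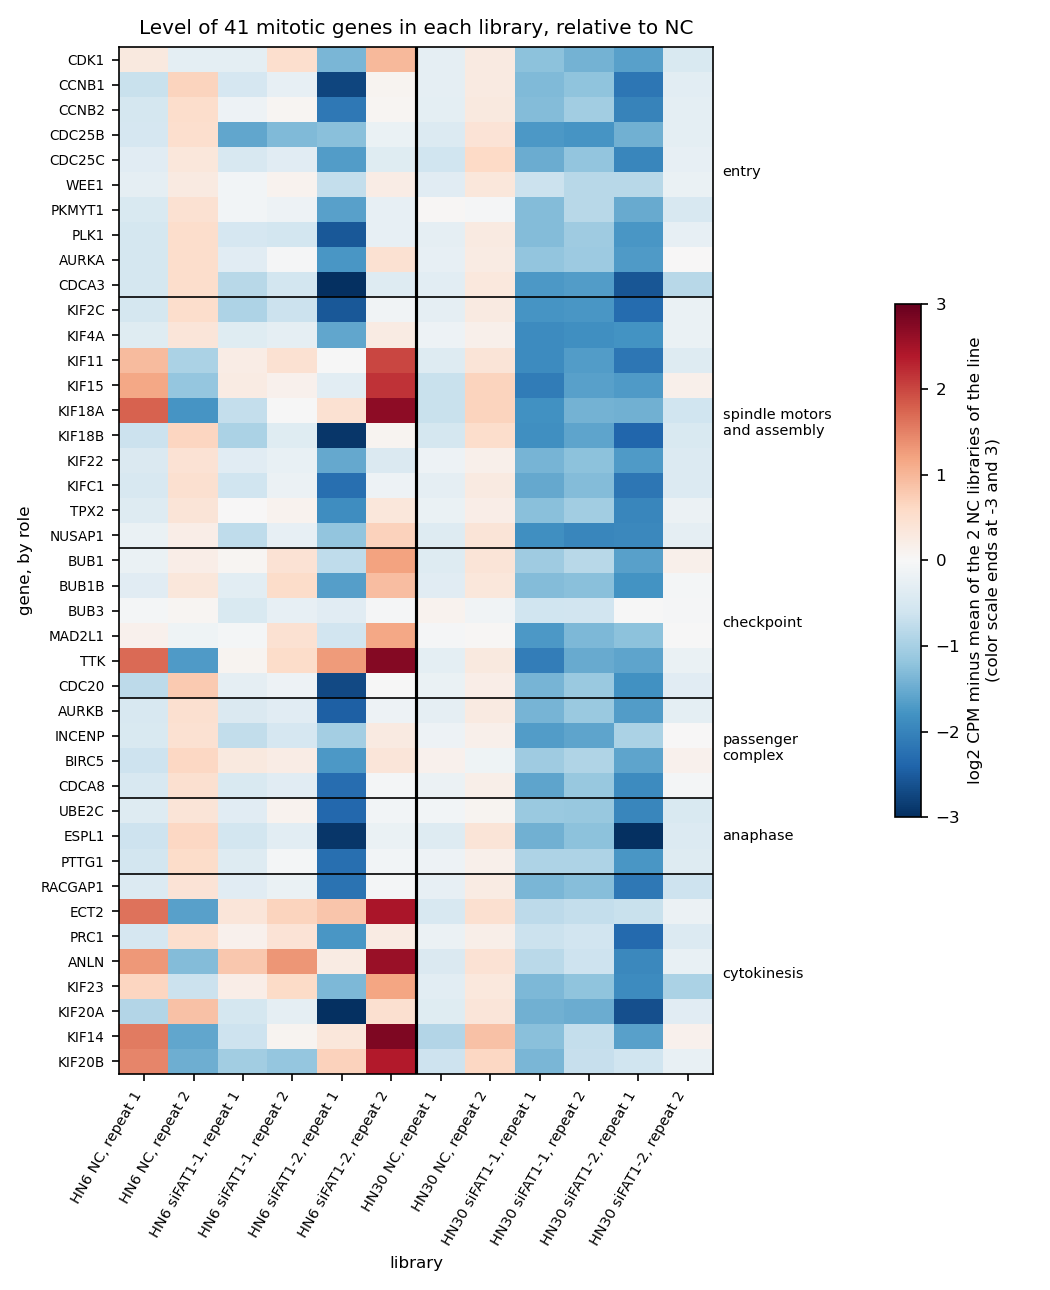
Level of the 41 members in each of the 12 libraries, as log2 CPM minus the mean of the 2 NC libraries of the same line, by role (blue, lower; red, higher). Both HN30 siFAT1-1 libraries and repeat 1 of siFAT1-2 in HN30 are blue for nearly all members, repeat 2 of siFAT1-2 is pale, and the HN6 NC repeats differ in sign for members such as KIF18A and TTK.

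The siRNAs were then compared with NC one at a time. These comparisons share their NC libraries. With siFAT1-1 all 41 members were fitted lower (50.4% of all genes), 8 had an unadjusted P under 0.05 (10.2%) and 6 passed the DEG thresholds (2.35%), which were CDC25B, CDCA3, KIF2C, KIF4A, NUSAP1 and INCENP. CDC25B had an adjusted p of 0.0162 with edgeR, the only member under 0.05 (3.25% of all genes). With siFAT1-2, 34 members were fitted lower (50.3%), 7 had an unadjusted P under 0.05 (16%) and 3 passed the DEG thresholds (4.75%), CDCA3, KIFC1 and RACGAP1. No member reached an adjusted p under 0.05 for siFAT1-2 with edgeR (11.8% of all genes did), while limma-voom and DESeq2 each gave 1. Read against all genes, 7 of 41 members at an unadjusted P under 0.05 is a share near the background for siFAT1-2. With the replicate block, 7 members passed the DEG thresholds for siFAT1-1 (2.15% of all genes) and 15 for siFAT1-2 (5.14%), and for siFAT1-2 CDC25B, CDCA3, KIF22 and KIFC1 had an adjusted p under 0.05 (11.6%).

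Single libraries moved these counts too. For siFAT1-1 the count was 1 and 3 without repeat 1 and repeat 2 of HN30 siFAT1-1, 2 without repeat 2 of HN30 NC, and 13 and 11 without repeat 1 and repeat 2 of HN6 NC. For siFAT1-2 it was 0 without repeat 1 of HN30 siFAT1-2 or repeat 2 of HN30 NC, 1 without repeat 1 of either HN6 KD group or repeat 2 of HN6 NC, 15 without repeat 1 of HN6 NC, and 19 and 21 without repeat 2 of siFAT1-2 in HN6 and HN30.

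Set against each other with no NC library, siFAT1-1 and siFAT1-2 differed in 5 members at an unadjusted P under 0.05 (33.8% of all genes) and in 2 past the DEG thresholds (12.4%), KIF20B and TTK. No adjusted p was under 0.05 with edgeR or limma-voom, 3 were with DESeq2, and 17.4% of all genes were with edgeR. All 5, which also included CDC25B, BUB3 and INCENP, were lower with siFAT1-1. CDC25B was lower by 0.90 ± 0.32 on the log2 scale (SE, edgeR adjusted p = 0.0683). With GC content corrected for, CDC25B had -1.23 ± 0.31 and INCENP -1.11 ± 0.33 (edgeR adjusted p = 0.0187 and 0.0351), 2 of 41 members against 18.2% of all genes, and CDC25B alone was below 0.05 with the replicate block. Without repeat 1 of HN6 siFAT1-2 or repeat 2 of HN6 NC, 3 members were. The 2 calls became 0 without either HN6 siFAT1-1 library, 1 without either HN30 siFAT1-1 library or repeat 2 of either siFAT1-2 group, 5 without repeat 2 of HN6 NC, and 6 without repeat 1 of either siFAT1-2 group, and 1 with the replicate block (13% of all genes).

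Within a line and an siRNA, 2 libraries stood against 2. HN30 siFAT1-1 gave 9 members past the DEG thresholds (4.68% of all genes), and in 40 of 41, all but KIF14, both libraries lay below both NC libraries (30.7%). The 9 were CDC25B, CDC25C, INCENP, KIF11, KIF22, KIF2C, KIF4A, MAD2L1 and NUSAP1. HN30 siFAT1-2 gave 0 (5.29%), with 15 members below both NC libraries (25.5%). With edgeR, the only tool run here, 0 members were called lower there at an unadjusted P under 0.05 (9.94% of all genes). HN6 siFAT1-1 gave 1, CDC25B (1.29%), with 7 members below both NC libraries (18.3%), a share of members close to that of all genes. HN6 siFAT1-2 gave 0 (4.36%), with 1 member below both (24.1%), and 0 members were called lower at an unadjusted P under 0.05 (11.9%).

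The repeats of a condition differed in spread. Summed over the 41 members, HN30 NC held 3556 and 5213 CPM in repeats 1 and 2, siFAT1-1 held 1825 and 2028, and siFAT1-2 held 1340 and 3582. HN6 NC held 3282 and 5471, siFAT1-1 held 3279 and 3834, and siFAT1-2 held 1355 and 5229. The siFAT1-1 repeats lay close together and the siFAT1-2 repeats far apart, in both lines in the same direction. Repeat 2 of siFAT1-2 was higher than repeat 1 in all 41 members in HN6, by up to 11.6-fold (KIF20A), and in 40 of 41 in HN30, by up to 6.48-fold (ESPL1). The median absolute difference of repeats over the members was 2.20 and 1.65 on the log2 scale for siFAT1-2 in HN6 and HN30, against 0.46 and 0.35 over all genes. For siFAT1-1 it was 0.26 and 0.18, against 0.23 and 0.15. FAT1 itself was lower with siFAT1-2 than in NC in both repeats of each line.

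The regulators of mitotic entry gave 4 of the 10 DEGs in HN30, with a median log2 fold change of -1.09 there and -0.57 in HN6. CDC25B (chr20:3786772-3806121, plus strand) encodes a phosphatase that activates CDK1 at the centrosome. It was at 182 and 323 CPM in HN30 NC (repeats 1 and 2), 73.9 and 71.3 with siFAT1-1, and 89.6 and 198 with siFAT1-2. In HN6 it was at 160 and 326 CPM in NC, 77.9 and 90.9 with siFAT1-1, and 95.3 and 200 with siFAT1-2. Both siFAT1-1 libraries lay well below NC in each line, while repeat 2 of siFAT1-2 overlapped NC. Its log2 fold change over both lines was -1.14 ± 0.33 (SE, n = 8 against 4, edgeR adjusted p = 0.143).

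CDCA3 (chr12:6844793-6851292, minus strand) encodes an F-box-like trigger of mitotic entry that leads to WEE1 breakdown. It stood at 27 and 41.6 CPM in HN30 NC, 10.2 and 10.5 with siFAT1-1, and 5.59 and 18.7 with siFAT1-2, so no knockdown library reached NC. HN6 had 37.4 and 76.7 CPM in NC, 30.2 and 36.7 with siFAT1-1, and 5.57 and 40.8 with siFAT1-2, the last value overlapping NC. The log2 fold change over both lines was -1.32 ± 0.43 (edgeR adjusted p = 0.186), a level of 0.401 of NC and the largest fitted decrease of the 41.

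CDC25C (chr5:138285269-138338355, minus strand), another phosphatase that activates CDK1, was low throughout. Its HN30 levels were 6.79 and 15.6 CPM in NC, 3.63 and 4.53 with siFAT1-1, and 2.6 and 8.68 with siFAT1-2. Its HN6 levels were 13.3 and 21 CPM in NC, 11.9 and 13.1 with siFAT1-1, and 5.18 and 13 with siFAT1-2. In HN6 the groups did not overlap, but the upper knockdown values lay just under the lower NC value. CDK1 itself (chr10:60778331-60794852, plus strand) was at 33 and 47.6 CPM in HN30 NC, 16.9 and 14.9 with siFAT1-1, and 12.9 and 29 with siFAT1-2, without overlap, but in HN6 it was at 59.7 and 39.4 in NC, 39.8 and 69 with siFAT1-1, and 18.7 and 95 with siFAT1-2, with NC higher in repeat 1 and both knockdown groups higher in repeat 2. Its log2 fold change was -1.13 ± 0.51 in HN30 (edgeR adjusted p = 0.581) and 0.17 ± 0.53 in HN6 (adjusted p = 0.947).

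The inhibitory kinase PKMYT1 did not overlap between groups in HN30, at 87.4 and 83.6 CPM in NC against 29.8 to 60.8 in FAT1 KD, and its log2 fold change over both lines was -0.74 ± 0.29 (edgeR adjusted p = 0.264). PLK1, the kinase that drives centrosome maturation and entry, had -0.92 ± 0.37 (edgeR adjusted p = 0.276). The cyclins CCNB1 and CCNB2, AURKA and WEE1 had fitted values between -0.91 and -0.37, none with P under 0.05. WEE1, which acts against CDK1, had the smallest fitted difference of the 10 entry genes.

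**Figure D3:**
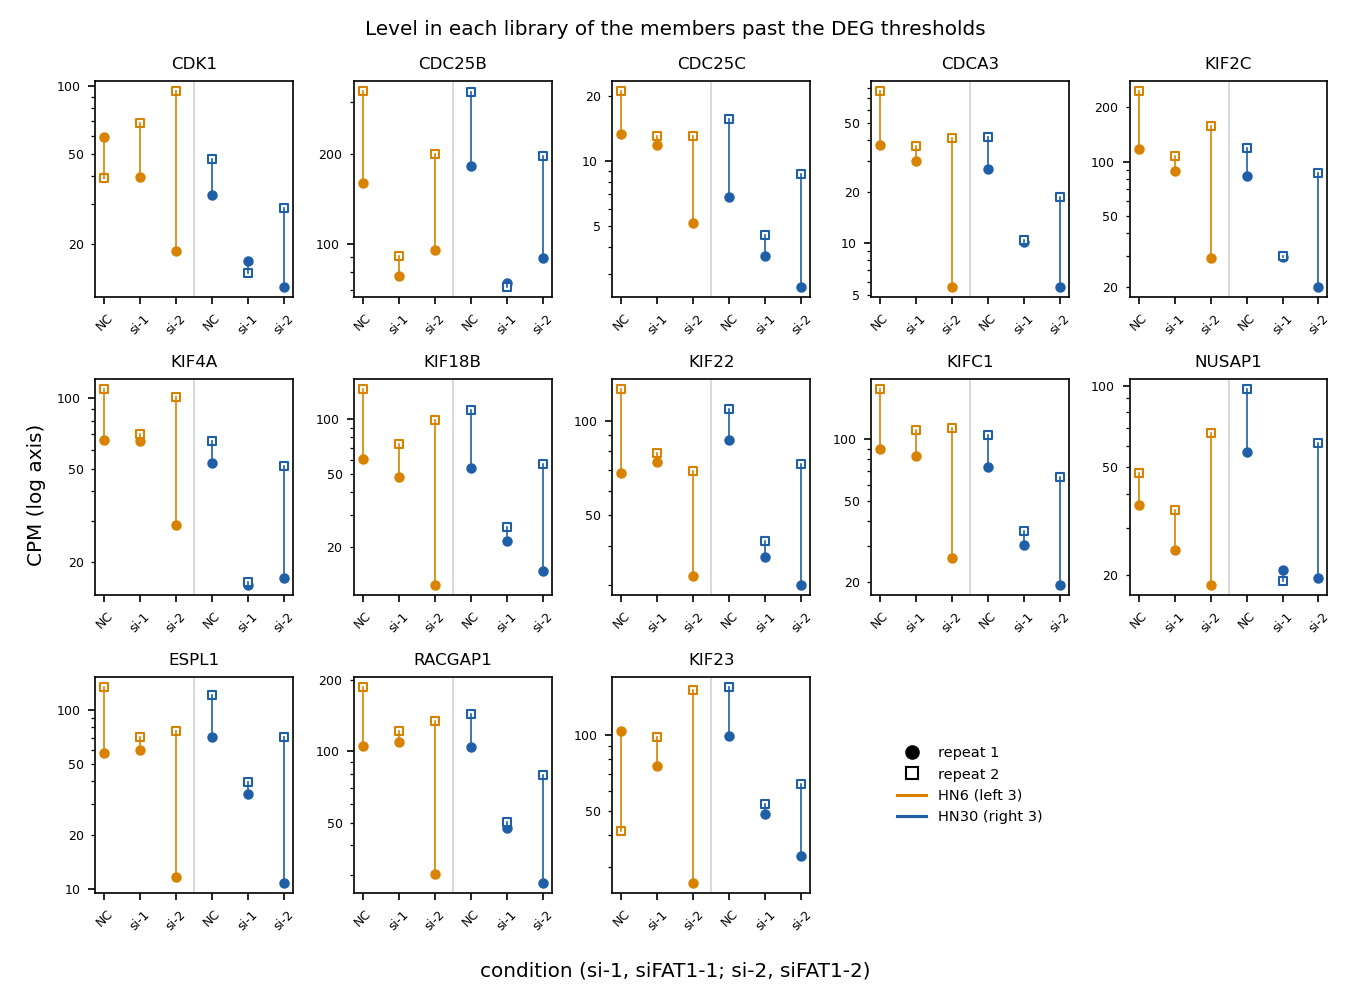
CPM (log axis) in each library of the 13 members that passed the DEG thresholds over both lines or in HN30; circles are repeat 1, squares repeat 2, and a line joins the repeats. HN6 is on the left and HN30 on the right of each panel. In HN30 the siFAT1-1 repeats sit together below NC for all 13, and siFAT1-2 spans a wide range.

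The spindle genes had medians of -1.26 in HN30 and -0.31 in HN6. KIF2C (chr1:44739818-44767767, plus strand), a kinesin that depolymerizes microtubules at kinetochores, was at 82.8 and 119 CPM in HN30 NC, 29.3 and 29.8 with siFAT1-1, and 20 and 86.4 with siFAT1-2. HN6 had 117 and 246 in NC, 88.8 and 108 with siFAT1-1, and 28.9 and 158 with siFAT1-2. Repeat 2 of siFAT1-2 reached into the NC range in both lines. Its log2 fold change over both lines was -1.11 ± 0.43 (edgeR adjusted p = 0.259).

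KIF18B (chr17:44924709-44947773, minus strand), which controls astral microtubule length, showed the same order. It was at 54.4 and 112 CPM in HN30 NC, 21.6 and 25.8 with siFAT1-1, and 14.9 and 57 with siFAT1-2, and at 60.6 and 146, 48.3 and 73.6, and 12.4 and 99 in HN6. The log2 fold change over both lines was -1.16 ± 0.47 (edgeR adjusted p = 0.286). KIF22, a chromokinesin that pushes chromosome arms to the spindle equator, had the smallest P of the members in HN30. It stood at 86.6 and 109 CPM in NC, 37 and 41.5 with siFAT1-1, and 30 and 73.1 with siFAT1-2, with no overlap, and its log2 fold change was -1.10 ± 0.41 (edgeR adjusted p = 0.512).

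KIF4A, a chromokinesin of the anaphase midzone, was at 53 and 65.6 CPM in HN30 NC, 15.9 and 16.4 with siFAT1-1, and 17 and 51.1 with siFAT1-2. KIFC1, a minus-end motor that focuses poles, was at 73 and 105, 30.3 and 35.5, and 19.4 and 65.4. Neither overlapped between FAT1 KD and NC, but the upper KIF4A knockdown value, 51.1 CPM, lay just under the lower NC value of 53. NUSAP1, which bundles spindle microtubules, overlapped through 1 library, at 57.1 and 97.1 CPM in NC, 20.9 and 19.1 with siFAT1-1, and 19.5 and 61.4 with siFAT1-2. These 3 had log2 fold changes in HN30 of -1.24 ± 0.52, -1.24 ± 0.54 and -1.35 ± 0.55 (edgeR adjusted p = 0.546, 0.563 and 0.537). KIF11, the motor that separates poles, KIF15, KIF18A and the assembly factor TPX2 had fitted values from -1.40 to -0.98 in HN30, none with P under 0.05, and KIF11, KIF15 and KIF18A were fitted above 0 in HN6. The near-identical copy KIF4B, with which KIF4A can share reads, had 1 to 24 counts.

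No checkpoint gene passed the DEG thresholds in the comparisons over both siRNAs, and the medians of the 6 were -0.96 in HN30 and 0.26 in HN6. CDC20, which activates the anaphase-promoting complex once the checkpoint is satisfied, had the largest fitted value, -0.88 ± 0.42 over both lines (edgeR adjusted p = 0.357). Its HN30 levels were 178 and 236 CPM in NC, 78.2 and 95 with siFAT1-1, and 58.6 and 161 with siFAT1-2, without overlap. BUB3, a checkpoint scaffold with the smallest SE of the 41 members over both lines, was at 163 and 141 CPM in HN30 NC, 100 and 102 with siFAT1-1, and 150 and 147 with siFAT1-2. Its difference in HN30 siFAT1-1 was small, at -0.59 ± 0.18 on the log2 scale (edgeR adjusted p = 0.141), and its unadjusted P was under 0.05. The kinases TTK and BUB1, the pseudokinase BUB1B and MAD2L1 were fitted from -1.19 to -0.74 in HN30 and from 0.13 to 0.73 in HN6, none with P under 0.05.

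The chromosomal passenger complex had medians of -0.94 in HN30 and -0.57 in HN6. AURKB, its kinase, was at 57.1 and 84.1 CPM in HN30 NC, 26.4 and 32.1 with siFAT1-1, and 21.5 and 56.5 with siFAT1-2. Over both lines its log2 fold change was -0.88 ± 0.36 (edgeR adjusted p = 0.296). INCENP, the scaffold of the complex, was lower with siFAT1-1 than with siFAT1-2, at 76.1 and 93.3 CPM in HN30 NC, 26.2 and 28.2 with siFAT1-1, and 43.7 and 85.3 with siFAT1-2. For siFAT1-1 over both lines INCENP had -1.14 ± 0.33 (edgeR adjusted p = 0.088). BIRC5 and CDCA8, encoding survivin and borealin, had fitted values of -0.44 and -0.83 over both lines, with no P under 0.05.

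The anaphase genes were all fitted lower in both lines. ESPL1 (chr12:53268299-53293638, plus strand) encodes separase, the protease that cuts cohesin. It was at 71 and 122 CPM in HN30 NC, 34 and 39.8 with siFAT1-1, and 10.8 and 70.3 with siFAT1-2, the last just under the lower NC value. In HN6 it was at 57.5 and 134 in NC and at 59.6 and 71.1 with siFAT1-1, and repeat 2 of siFAT1-2, at 76.5, lay within the NC range while repeat 1 lay far below it. The log2 fold change over both lines was -1.07 ± 0.48 (edgeR adjusted p = 0.33). PTTG1, the securin that holds separase back, and UBE2C had -0.76 and -0.78, with no P under 0.05. In HN30 neither overlapped between FAT1 KD and NC, and the securin copy PTTG2 had at most 1 count.

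Cytokinesis genes gave 2 DEGs in HN30 and none over both lines, with medians of -0.91 in HN30 and 0.29 in HN6. RACGAP1, which with KIF23 forms centralspindlin at the midzone, was at 104 and 144 CPM in HN30 NC, 47.4 and 50.2 with siFAT1-1, and 27.7 and 79.6 with siFAT1-2. KIF23 was at 99 and 154, 48.5 and 53.2, and 33.1 and 63.8. Both were free of overlap, with log2 fold changes in HN30 of -1.27 ± 0.51 and -1.35 ± 0.53 (edgeR adjusted p = 0.523 and 0.518). In HN6, RACGAP1 was at 105 and 187 CPM in NC, 110 and 122 with siFAT1-1, and 30.2 and 134 with siFAT1-2, so that it overlapped, and KIF23 had a fitted value of 0.26 ± 0.56. KIF20A, the midzone kinesin MKLP2, had the largest fitted value of the group over both lines, -0.99 ± 0.53 (edgeR adjusted p = 0.415). PRC1, which bundles midzone microtubules, the RhoA activator ECT2, ANLN, KIF14 and KIF20B had values from -0.49 to -0.02 over both lines. Of these 5, all but PRC1 were fitted above 0 in HN6.

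**Figure D4:**
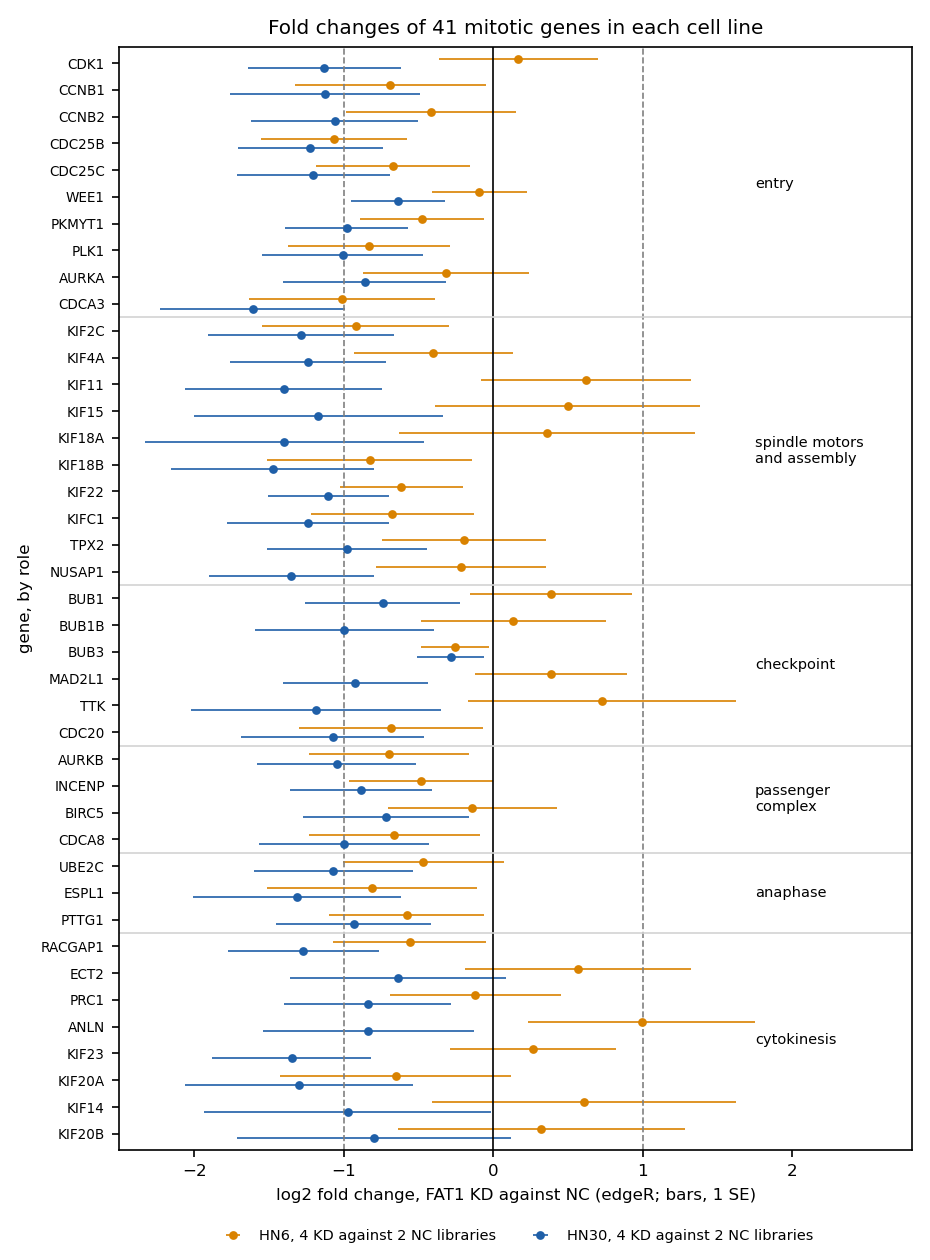
Fitted log2 fold change of FAT1 KD against NC (x axis) for each member by role in HN6 (orange) and HN30 (blue). Each line had 4 KD and 2 NC libraries. Bars are 1 SE from edgeR, with the spread shared by both lines over all 12 libraries. Dashed lines mark -1 and 1. All 41 HN30 values lie below 0, and 13 HN6 values lie above 0, most of them checkpoint, cytokinesis or kinesin genes.

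The 13 members fitted above 0 in HN6 were CDK1, KIF11, KIF15, KIF18A, BUB1, BUB1B, MAD2L1, TTK, ECT2, ANLN, KIF23, KIF14 and KIF20B, all among the 20 members of lower GC content. In repeat 2 of HN6 NC, KIF18A was at 0.76 CPM against 9.36 in repeat 1, TTK at 2.54 against 27, ECT2 at 8.51 against 83.1, KIF14 at 2.48 against 21.6 and KIF20B at 1.92 against 14.8. In all, 30 of the 41 members were higher in repeat 2, such as CDC20, at 659 against 222. The part of GC content in the HN6 results was not tested beyond the correction given below. The difference of the NC repeats followed the GC content of the canonical transcript, with a Pearson r of 0.70 and a Spearman rho of 0.73 over the 41 members and a Pearson r of 0.43 over the 13257 tested genes with a GC value. Members and genes share the same 2 libraries here, so the correlations only describe them. In HN30 NC the r over the members was -0.37. All 21 members of higher GC, from 46.2 to 67.3%, were higher in repeat 2 of HN6 NC, as were 9 of the 20 of lower GC, from 34.3 to 45.7%.

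**Figure D5:**
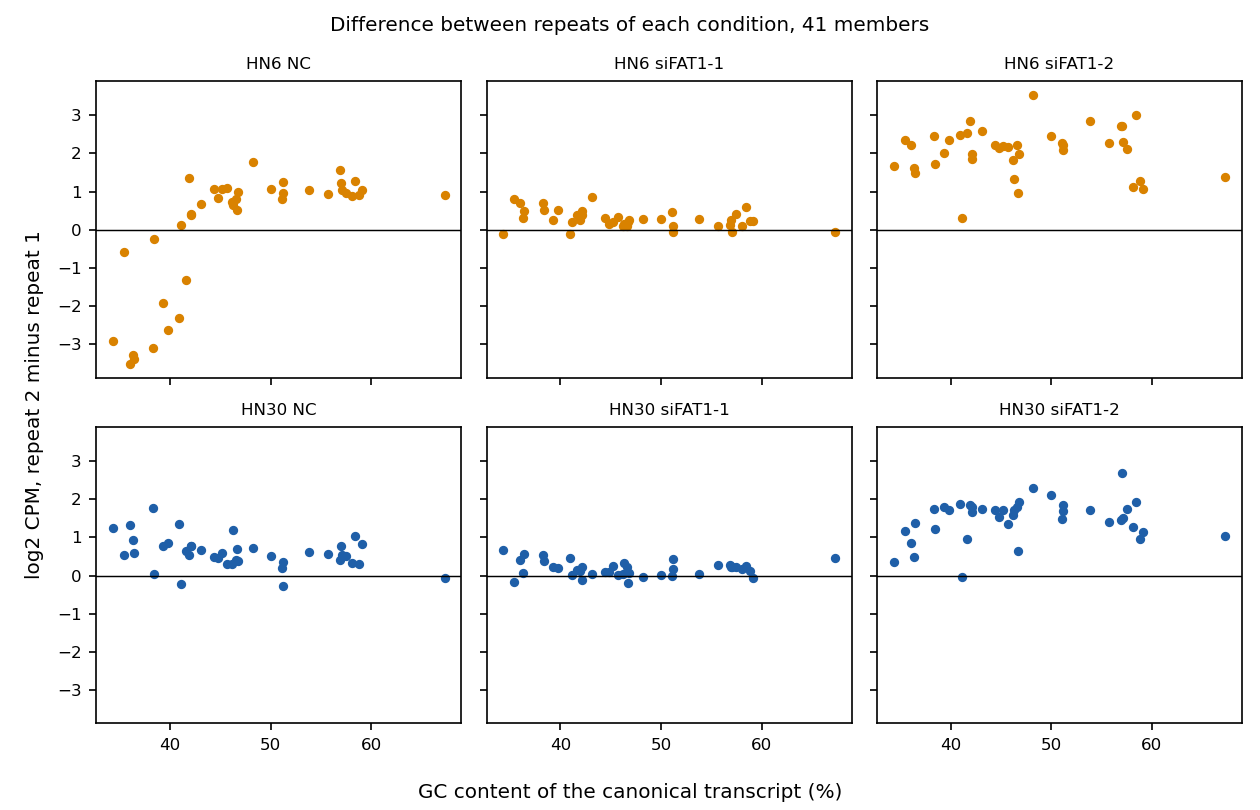
Difference of the repeats of each condition, as log2 CPM of repeat 2 minus repeat 1, against the GC content of the canonical transcript, for the 41 members (points). In HN6 NC all 21 members of higher GC lie above 0 and only 9 of the 20 of lower GC do, whereas with siFAT1-2 41 members lie above 0 in HN6 and 40 in HN30.

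The comparison was also made within each repeat. Against the NC library of the same repeat number, all 21 members of higher GC were lower in HN6 siFAT1-1 repeat 2, siFAT1-2 repeat 1 and siFAT1-2 repeat 2, and 8 of 21 in siFAT1-1 repeat 1. Of the 20 of lower GC, 7, 20, 6 and 13 were lower in the same libraries. In HN30 the members of both kinds together were lower in 41 and 41 for siFAT1-1 and in 40 and 39 for siFAT1-2, repeats 1 and 2. Between 48.7 and 58.6% of all genes were lower in each such pair of libraries. With the trend on GC content taken out of each library, an alternative chosen after seeing the data, 33 members were fitted lower in HN6 with a median log2 fold change of -0.42, and 41 in HN30 with a median of -1.02. CDK1, for example, moved from 0.17 to -0.69 in HN6 and from -1.13 to -1.18 in HN30. The DEG counts with this correction were 0 in HN6 (1.04% of all genes) and 10 in HN30 (2.05%).

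Of the mitosis genes on a list outside the 41, 50 were tested. Over both lines 36 of the 50 were fitted lower (48% of all genes). An unadjusted P under 0.05 in either direction was reached by 8 of the 50, near the share of all genes (2016 of 13887). Only 1 passed the DEG thresholds (1.04% of all genes were called lower this way). It was FAM83D, which recruits a kinase to the spindle, at -1.04 ± 0.41 (edgeR adjusted p = 0.276). In HN30, 41 of the 50 were fitted lower (46.5% of all genes) with a median log2 fold change of -0.75. FAM83D, the citron kinase gene CIT, the condensin gene NCAPH and the proliferation marker MKI67 passed (1.97% of all genes were called lower). MKI67 was at -1.68 ± 0.68 (edgeR adjusted p = 0.536). In HN6, 22 were fitted lower (49.7% of all genes), with a median of 0.09, and none passed (0.979% of all genes were called lower). An unadjusted P under 0.05 in either direction was reached by 1 of the 50, against 1087 of 13887 genes. The medians of this list lay closer to 0 than those of the 41 members in each line, and that contrast was not tested.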

How the data were processed

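Poly(A) RNA of 12 libraries was sequenced as 150-bp read pairs. Per the study's methods, reads with poly-N, duplicates and low quality were removed with scripts of the authors and aligned to hg38. The submitters' processing notes name HISAT2 and featureCounts, and the annotation and strand setting were not given in the sources used here. The authors deposited 1 table of raw read counts per gene. Without a known strand setting, reads of overlapping and antisense genes cannot be told apart. Nor can reads shared by near-identical genes, whatever that setting. The table holds 27 symbols turned into dates. GENCODE 44 matched 18278 entries and not 945, and GC content was known for 13257 of 13887 tested genes (95.5%).

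Groups came from the labels, which give the repeat number as a separate time. Genes passed edgeR's filterByExpr with a minimum count of 10, and libraries were scaled by TMM. The test was the quasi-likelihood test of edgeR (glmQLFit and glmQLFTest) with Benjamini-Hochberg adjustment over all tested genes, with cell line as a term for both lines together. Differentially expressed genes (DEGs) were those with P below 0.05 before adjustment and a log2 fold change beyond 1 in size, the study's thresholds. Prior counts were 2 for log2 CPM and 0.125 for fold changes. Repeats of the same number correlated in their deviations from group means over all genes with r of 0.0778, 0.219 and 0.242 in HN6 and of -0.0337, 0.405 and -0.0216 in HN30, so the replicate block rests on the labels. Tests were checked on simulated counts in which genes varied independently at the common dispersion. That setting lacks the shifts between repeats that the members share, so the check does not cover them. All members were described by role, with values per library for those past the DEG thresholds over both lines or in HN30 and for the largest fold change of each role, and other mitosis genes were named only where called. The members and lists were chosen with earlier results of these data known. Alternatives were other size factors, filters and models, limma-voom, DESeq2, the replicate block, leaving out libraries and, chosen after seeing the data, removing a curve on GC content with 5 degrees of freedom from each library. Libraries held 26430049 to 47639010 counts, and the common dispersion of 0.139 exceeded counting error. Software was R 4.3.3, edgeR 4.0.16, limma 3.58.1, DESeq2 1.42.0, Python 3.11.15, pandas 2.3.3, numpy 2.4.6 and matplotlib 3.10.9.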

Additional observations from a re-analysis of the deposited data

How the results depend on the processing

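The median log2 fold changes of the 41 members kept their sign in the comparisons of FAT1 KD with NC under every alternative run. All medians moved by less than 1 SD, the SD between repeats of a library's median member level (log2, 0.887 in HN6 and 0.678 in HN30). That SD is larger than the HN6 median of -0.40, so it is a wide yardstick that says little about stability. Leaving out 1 library at a time, the medians ran from -0.94 to -0.54 over both lines, -0.76 to -0.08 in HN6, -1.43 to -0.81 in HN30, -1.05 to -0.63 for siFAT1-1 and -1.09 to -0.38 for siFAT1-2. The interaction median ran from -1.02 to -0.23. The medians of siFAT1-1 against siFAT1-2 (-0.46 to 0.38) and of HN30 NC against HN6 NC (-0.49 to 0.41) changed sign. Counts of members past the DEG thresholds were less stable, and the cause was not tested. Leaving out 1 library at a time, they ran from 1 to 17 over both lines, 0 to 5 in HN6, 0 to 30 in HN30, 0 to 8 for the interaction, 1 to 13 for siFAT1-1, 0 to 21 for siFAT1-2, 0 to 6 between siRNAs and 0 to 9 between NC groups.

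With the replicate block the count rose from 10 to 25 in HN30 (2.06% of all genes) and from 3 to 15 for siFAT1-2 (5.14%). It fell from 2 to 1 between siRNAs (13%) and from 4 to 2 between NC groups (28.2%). It stayed within 1.5 times in the other comparisons. With the GC correction and the replicate block together it was 26 in HN30 (2.19% of all genes) and 0 in HN6 (0.785%). In that fit it was 10 for siFAT1-1 (2.57%) and 12 for siFAT1-2 (4.15%). The GC correction alone gave 0 in HN6 (1.04%), 10 for siFAT1-1 (2.71%) and 7 between NC groups (30.5%). The share of all genes was not taken for the remaining alternatives, so their counts are a description. limma-voom gave 9 over both lines, 1 for the interaction, 17 for siFAT1-2, 1 between siRNAs and 8 between NC groups. DESeq2's Wald test gave 0 in HN6, 2 for the interaction, 10 for siFAT1-1, 4 between siRNAs and 9 between NC groups. Without both HN6 siFAT1-2 libraries it was 21 in HN30, 1 for the interaction, 1 for siFAT1-2, 0 between siRNAs and 7 between NC groups. HN30 libraries alone gave 21, and the model without a cell line term gave 2 over both lines. In HN6 the 1 call was lost (0) with DESeq2 size factors, no TMM factor or a minimum count of 50. The last gave 2 between NC groups, and no TMM factor gave 1 for siFAT1-2. The 16 members with P under 0.05 over both lines or in HN30 gave 24 pairs of member and comparison. Of their 565 values under the alternatives, 462 had P under 0.05 and none had the other sign, and since the pairs were selected for that P these counts are a description. What limited the calls, depth or the spread of 2 repeats a condition, was not tested.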
